A study of Mus musculus with 8 samples.

Results

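Zinc finger protein genes named Zfp and a number, a naming class of mouse transcription factors and RNA-binding proteins, were described in mouse blastocysts. A gene was included when its symbol was Zfp followed by a number and at most 1 letter and when it reached 1 FPKM (a fragment count scaled to transcript length and library size) in at least 2 of 8 libraries, with Zfp42 left out. Of 345 such symbols, 195 met this level and 150 did not, in a table of 19688 genes. The level rule was the same as the filter of the test, so all 195 members were among the 10755 genes tested. The members were thus chosen by their measured FPKM, and their levels are given as a description. Nearest the threshold on the inside were Zfp395, with 1.02 FPKM in its library of second-highest level, and Zfp90, with 1.05 FPKM. Zfp953, with 0.999 FPKM, and Zfp26, with 0.997 FPKM, stood just outside it. A level of 1 FPKM was reached in all 8 libraries by 110 members and in at least 1 library of every group by 162. Zfp407 and Zfp950 reached it in vitrified libraries only and had to be higher there to be members.

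C2H2 zinc fingers are short loops held by a zinc ion, and strings of them can bind DNA of a given sequence. Many of these proteins also carry a KRAB domain, which recruits the corepressor TRIM28 and, with it, histone methyltransferases and heterochromatin proteins. In the early embryo such KRAB zinc finger proteins silence retrotransposons and keep imprinted genes methylated while most of the genome loses its methylation.

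The RNA came from blastocysts, the stage with an outer trophectoderm and an inner cell mass. The control group was fresh and never frozen (2 libraries). A second group was vitrified, that is, cooled to a glass in cryoprotectant, and thawed without melatonin (3 libraries). The third had melatonin, a hormone with antioxidant activity, at 1e-10 M in the solutions for vitrification and for thawing (3 libraries). The labels give no strain, embryo age or number of embryos and do not say whether libraries came from separate animals or pools, so the tests take in only how far these libraries varied, which may be technical.

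An estimated 5815500 to 9997500 fragments per library lay behind the values. Summed trophectoderm markers (6 of 6 genes read) were between 6600.0 and 11360.0 FPKM in every library. The 4 epiblast markers summed to 20.4 and 67.8 FPKM in the fresh libraries, to 125.7 to 151.9 in the vitrified and to 121.9 to 141.6 in the melatonin libraries. The 4 primitive endoderm markers summed to 13.4 and 35.9 FPKM, to 45.2 to 47.1 and to 25.8 to 32.9 in the same order. The fresh libraries were thus the lowest for epiblast markers, and their part in the differences from fresh below was not tested. Markers of cumulus cells (2 of 5 genes read), fibroblasts (3 of 3) and blood (1 of 3) summed to at most 0.344, 0.336 and 1.34 FPKM, and oocyte markers (3 of 4) to at most 1.57. None of these was at 0 in every library. Libraries also differed in the number of genes above 0 FPKM, which was 14260 and 14741 in fresh, 15749 to 16400 in vitrified and 14544 to 14889 in melatonin libraries. Its part was not tested either. Y-linked transcripts (4 of 4 genes read) summed to 0 FPKM in vitrified replicates 2 and 3 and to 20.9 to 36.8 elsewhere. Their part in any comparison with the vitrified libraries was not tested. In bulk RNA, fewer cells of a type and less RNA per cell cannot be told apart.

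Of the 195 members, 191 had an annotated protein and 4 were pseudogenes (Zfp125, Zfp419, Zfp640 and Zfp939). A KRAB pattern was found in 109 proteins and not in 82, and a SCAN pattern, the mark of a domain through which such proteins pair, in 5. The longest proteins held between 0 and 30 C2H2 fingers, with a median of 10. KRAB proteins had a median of 12 fingers and the others a median of 6. No C2H2 pattern was found in 5 proteins (Zfp36, Zfp185, Zfp330, Zfp839 and Zfp935). Among them Zfp36 is tristetraprolin, which binds AU-rich mRNA through CCCH fingers and starts its decay, and Zfp185 is a LIM domain protein. The shared symbol thus covers more than 1 kind of protein.

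Members were not spread evenly over the genome. Chromosome 7 held 44, chromosome 17 held 32, chromosome 13 held 18 and chromosome 8 held 14. With neighbours at most 500 kb apart taken as a run, 85 members lay in 16 runs of 3 or more, and 76 stood alone. Relatives of recent origin share sequence, and their fragments can be assigned to the wrong copy. At least 5% of the 100-base windows of 35 members occurred in another gene too. The share was 99.3% for Zfp935, 68.3% and 67.3% for Zfp960 and Zfp97, and 51.1% for Zfp58, so the levels of these 4 are uncertain. It was 0 for 140 members, among them Zfp612, Zfp809 and Zfp296.

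The promoters of 7 members that appear in the results below are shown, to compare copies of a gene with members that are no close relatives. They are taken from RefSeq for GRCm38.p6 and end at the base before the annotated start, 5′ to 3′ on the strand of the gene. Entries were matched for 160 members. Capitals mark a CCAAT box (CCAAT or ATTGG), a GC box (GGGCGG or CCGCCC) or the hexamer bound by ZFP57 (TGCCGC or GCGGCA), each searched on both strands. A GC box and the hexamer can overlap by several bases.
Zfp955a and Zfp955b: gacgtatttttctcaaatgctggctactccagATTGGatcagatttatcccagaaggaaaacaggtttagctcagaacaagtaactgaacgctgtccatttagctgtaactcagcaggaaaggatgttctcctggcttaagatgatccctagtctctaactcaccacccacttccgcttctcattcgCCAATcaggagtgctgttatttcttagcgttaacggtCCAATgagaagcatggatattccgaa
Zfp869: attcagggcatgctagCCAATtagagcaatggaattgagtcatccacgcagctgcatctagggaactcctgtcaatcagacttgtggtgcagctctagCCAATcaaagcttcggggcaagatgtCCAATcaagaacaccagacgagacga
Zfp868: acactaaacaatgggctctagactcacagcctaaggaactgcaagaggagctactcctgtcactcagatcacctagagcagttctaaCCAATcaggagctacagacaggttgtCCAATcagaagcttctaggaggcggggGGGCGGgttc
Zfp809: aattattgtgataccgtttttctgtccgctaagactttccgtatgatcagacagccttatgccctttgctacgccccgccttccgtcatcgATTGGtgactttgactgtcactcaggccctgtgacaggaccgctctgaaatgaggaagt
Zfp936: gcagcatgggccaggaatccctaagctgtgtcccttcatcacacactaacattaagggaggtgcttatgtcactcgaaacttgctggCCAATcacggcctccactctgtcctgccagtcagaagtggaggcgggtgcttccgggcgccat
Zfp296: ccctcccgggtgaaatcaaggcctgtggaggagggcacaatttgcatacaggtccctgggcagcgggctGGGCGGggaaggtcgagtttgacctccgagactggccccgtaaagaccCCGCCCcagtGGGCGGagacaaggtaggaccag

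The Zfp955a and Zfp955b promoters lie on opposite strands of chr17:33255146-33255395 and chr17:33289294-33289543. All 250 of 250 bases were identical, with 3 CCAAT boxes and no GC box. For the other members shown, boxes were counted in 150 bases, so the counts are not over equal lengths. Zfp869 (chr8:69716903-69717052, minus strand) and its neighbour Zfp868 (chr8:69625549-69625698, minus strand) had 58.6% identical positions over 169 aligned columns, with 3 and 2 CCAAT boxes. As GENCODE annotates these genes, the RefSeq start of Zfp869 lies upstream of the gene and that of Zfp936 inside it. Zfp809 (chr9:22225553-22225702) and Zfp936 (chr7:43177440-43177589) held 1 CCAAT box each. Zfp296 (chr7:19577137-19577286), which has no KRAB pattern, held 3 GC boxes and no CCAAT box. Zfp809 and Zfp296, which shared no window with another gene, had 48.9% identical promoter positions over 174 aligned columns. Over 250 bases, 55% of the 160 members with a promoter entry had a CCAAT box, against 34.5% of all 27025 genes of that table and 37.9% of 7630 tested genes. A GC box was found in 42.5% of members and 59.9% of tested genes, and the ZFP57 hexamer in 13.1% and 14.2%. Within the members, the CCAAT box was found in 61.3% of 93 with a KRAB pattern and in 43.8% of 64 without, and the GC box in 31.2% and 59.4%. The KRAB group had a median of 8 CpG dinucleotides per promoter and the other group 17.5. A match is no evidence of binding.

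Most members were present at low levels. The median of their mean FPKM was 2.48, against 5.79 over all tested genes, and 25 members (12.8%) had a mean of 10 FPKM or more, against 38.2% of tested genes. KRAB members (median 2.48 FPKM) and the others (2.5) had much the same level. In sum, members made up 0.262% to 0.331% of all FPKM of a library. The spread within groups was near that of other genes, with a median SD of 0.27 on the log2(FPKM + 1) scale for members and 0.27 for all tested genes.

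Zfp706, a small protein that embryonic stem cells need to leave self-renewal, was by far the highest member, at 325.3 and 226.8 FPKM in fresh, 188.0, 222.9 and 224.0 in vitrified and 177.5, 206.5 and 240.6 in melatonin libraries. It was followed by Zfp330, a nucleolar protein, whose libraries lay between 38.6 and 53.4 FPKM. The third was Zfp296, a factor of pluripotent cells, between 24.2 and 47.9 FPKM. Ranks 4 to 10 were Zfp622 and Zfp593 (assembly of the large ribosomal subunit), Zfp410 (an activator of Chd4), Zfp511, Zfp207 (a spindle and mRNA-binding protein), Zfp64 and Zfp830 (an RNA-splicing factor needed by early embryos). None of these 10 carried a KRAB pattern. Zfp706 stood several times above the rest, whereas the ranges over libraries of ranks 2 to 10 overlapped from each to the next.

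**Figure D1:**
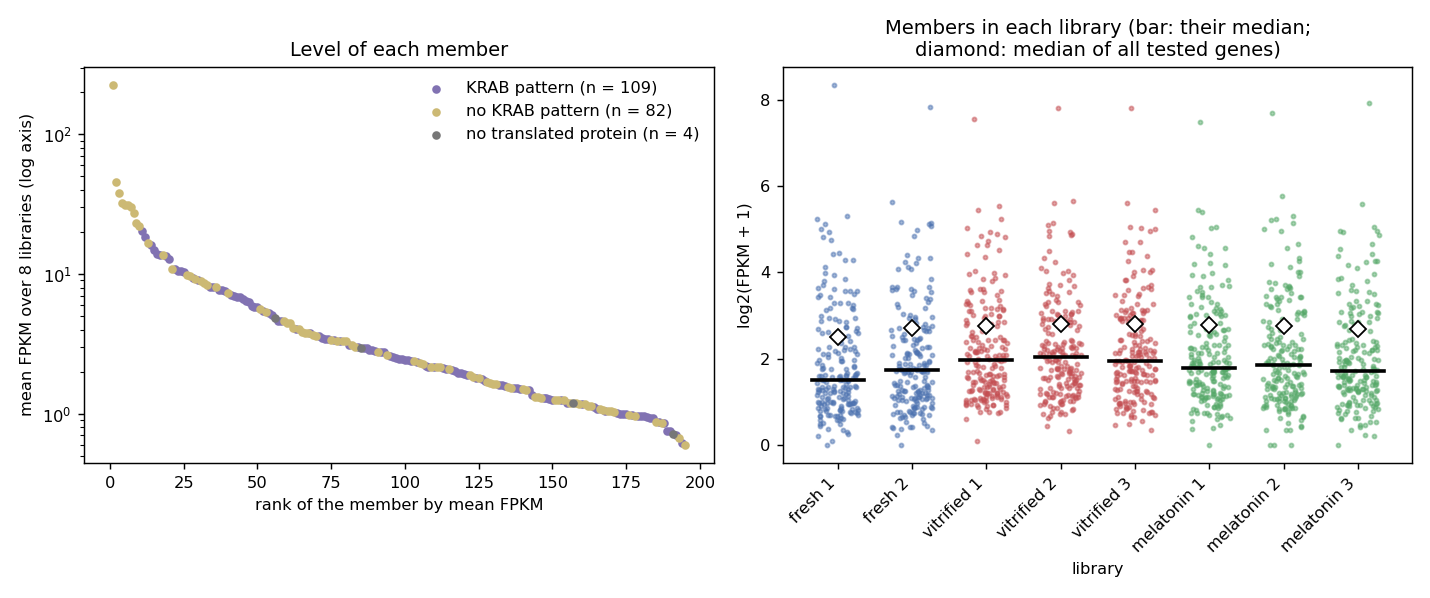
Left, mean FPKM of each member over 8 libraries (log axis) against its rank, coloured by KRAB pattern (109 with, 82 without, 4 without a protein). Right, log2(FPKM + 1) of all members in each library, with their median as a bar and the median of all tested genes as a diamond; the members' median was 1.51 and 1.73 in fresh, 1.94 to 2.04 in vitrified and 1.71 to 1.85 in melatonin libraries.

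Vitrified blastocysts were compared with fresh blastocysts to see what cooling and thawing left in the transcriptome. Only Zfp612, a KRAB protein with 16 fingers, passed the test among the members and rose. Without further scaling, members as a group stood slightly higher in the vitrified libraries, and so did tested genes in general. No member passed in the lower direction. Differences are given on the log2(FPKM + 1) scale, which understates the change of low genes, and were tested with limma with Benjamini-Hochberg adjustment over all 10755 genes.

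Zfp612 (chromosome 8, 110079746 to 110092741, plus strand) had 0.0 and 0.299 FPKM in the fresh libraries. In the vitrified libraries it had 2.79, 3.55 and 3.02 FPKM, and in the melatonin libraries 2.07, 1.33 and 1.48. Every vitrified library was above every melatonin library, and these were all above the fresh ones. No fresh library reached 1 FPKM, so Zfp612 met the level rule only through the groups in which it was higher. The difference of vitrified from fresh was 1.85 ± 0.23 (SE, adjusted p = 0.0324, limma). Its exons share no base with another annotated gene. Depending on which transcript length applied, the level corresponded to 0 fragments in fresh replicate 1, 2.5 to 8.5 in fresh replicate 2 and 27.6 to 120.5 in a vitrified library. The adjusted p ranged from 0.0127 to 0.116 over 17 other fits and was below 0.05 in 7 of them. Without fresh replicate 1 it was 0.0700, and leaving out any 1 of the vitrified libraries gave 0.0556 to 0.115. Without melatonin replicate 3 it was 0.0583. Melatonin libraries differed from vitrified ones by -0.66 ± 0.21 (adjusted p = 0.225) and from fresh ones by 1.19 ± 0.23 (adjusted p = 0.116), and neither passed.

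In the vitrified against fresh comparison, 1 of 195 members (0.513%) passed in the higher direction, against 0.762% of all tested genes, and 0 passed in the lower direction, against 0.102%. At an unadjusted p below 0.05, 37 members were higher (background 15.6%) and 1 was lower (background 4.56%). The median difference of the members was 0.22 and that of all tested genes 0.14, so the members' median lay 0.08 above it. Of the members, 156 (80.0%) had a difference above 0, against 63.5% of all tested genes. All vitrified libraries were above all fresh libraries in 68 members (background 26.4%), and below them in 9 (background 10.6%). Zfp407 and Zfp950, which met the level rule through vitrified libraries only, are among the 68. A further 31 members reached 1 FPKM in 2 groups only. Some of them, such as Zfp612, Zfp57, Zfp445 and Zfp819, had no fresh library at that level and are among the 68 too. Such members met the level rule only through groups in which they were higher. The counts without overlap and above 0 depended on scaling. With median ratio scaling the median of all tested genes went to -0.01, that of the members to 0.08, and the counts without overlap were 43 (background 18.0%) and 19 (background 19.0%). With quantile normalization the members' median was 0.00 and that of all tested genes -0.02, 98 members (50.3%) were above 0, against 47.3% of all tested genes. Without overlap 36 were then higher (background 16.5%) and 23 lower (background 17.5%).

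**Figure D2:**
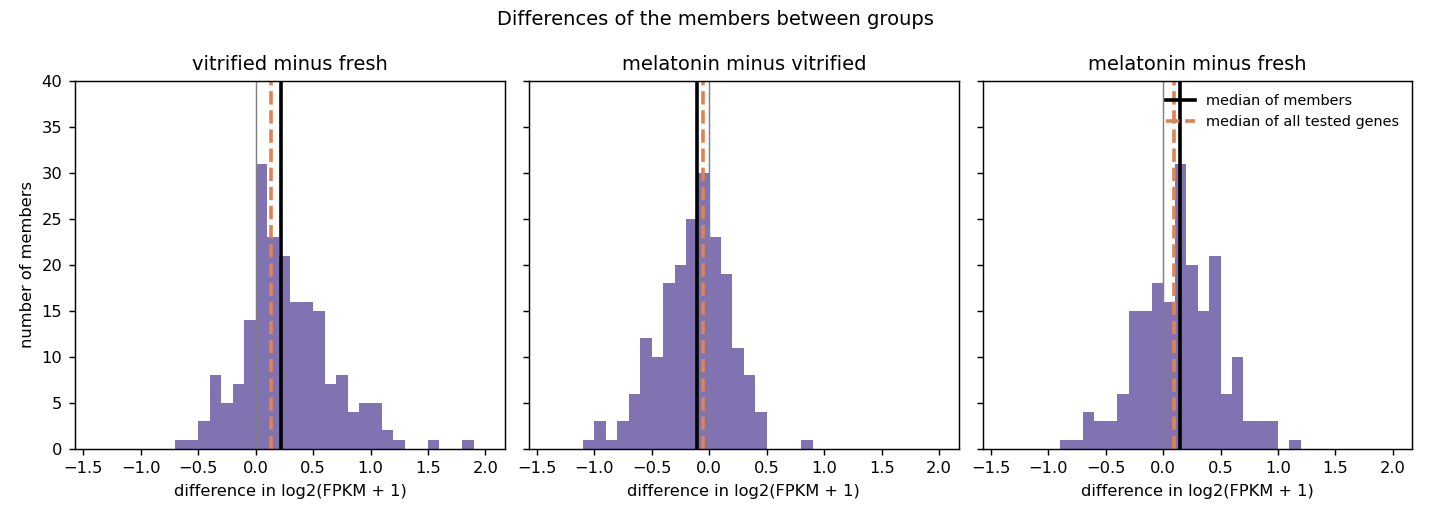
Histograms of the difference in log2(FPKM + 1) of the 195 members in each comparison, with a solid line at their median and a dashed line at the median of all tested genes. The medians were 0.22 and 0.14 for vitrified minus fresh, -0.11 and -0.05 for melatonin minus vitrified, and 0.15 and 0.09 for melatonin minus fresh.

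Members were ranked in each comparison where the mean of both group means was at least 5 FPKM and the groups did not overlap, so a member can be ranked in 1 comparison and lie below that level in another. By this rule the highest differences were found in Zfp934, Zfp599 and Zfp809, all KRAB proteins, and none of them passed the test. Lower-level members could differ by more. The largest difference after that of Zfp612 was in Zfp820, with means of 0.384 FPKM in fresh and 3.08 in vitrified libraries (1.52 ± 0.36, SE, adjusted p = 0.0673, limma). Zfp623, which has 13 fingers and no KRAB pattern, had 2.03 and 2.58 FPKM in fresh and 7.00, 5.45 and 6.63 in vitrified libraries (1.15 ± 0.26, SE, adjusted p = 0.0598, limma), with a mean of 4.33 over both groups. Zfp934 had 5.02 and 3.44 FPKM in fresh and 6.72, 10.9 and 11.4 in vitrified libraries (1.02 ± 0.26, SE, adjusted p = 0.0750, limma). Zfp599 had 5.65 and 3.80 FPKM in fresh and 10.6, 9.91 and 7.67 in vitrified libraries (0.87 ± 0.22, adjusted p = 0.0762). Zfp809, which silences retroviruses that use the proline tRNA primer, had 14.3 and 15.8 FPKM in fresh and 27.4, 33.3 and 21.1 in vitrified libraries (0.79 ± 0.21, adjusted p = 0.0809). Zfp599 and Zfp809 lie in the same run on chromosome 9, on opposite strands, and no window was shared with another gene in either. Zfp934 shared 16.1% of its windows, mostly with Zfp808, and Zfp808 (0.65) shared 14.6%, so that their separate levels are less certain. Zfp936 (0.78), Zfp951 (0.71), Zfp655 (0.67) and Zfp870 (0.60) completed the 8 highest, with adjusted p between 0.136 and 0.206 for these and Zfp808.

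Only 3 members of that level were lower in every vitrified library. At a mean of 5 FPKM or more over all 8 libraries, 3 of 55 members and 862 of 5721 tested genes were lower without overlap. Higher without overlap were 14 of 55 members and 1320 of 5721 tested genes. For Zfp706 the difference was -0.36 ± 0.20 (adjusted p = 0.329), for Zfp869 -0.33 ± 0.18 (0.324) and for Zfp948 -0.30 ± 0.20 (0.422), each with limma. In Zfp706 the fresh library nearest the vitrified ones had 226.8 FPKM and the highest vitrified library 224.0, so that the gap was far smaller than the spread within the groups.

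The Zfp955 pair was chosen for its identical promoters, and the values of each copy are given. Zfp955b had 3.3 and 3.36 FPKM in fresh, 6.17, 6.32 and 7.29 in vitrified and 3.76, 3.64 and 3.03 in melatonin libraries. Zfp955a had 0.977 and 2.21 FPKM in fresh, 3.57, 3.38 and 4.02 in vitrified and 2.82, 3.95 and 3.11 in melatonin libraries. Both were higher in every vitrified than in every fresh library, with differences of 0.81 ± 0.19 (Zfp955b, adjusted p = 0.0673, limma) and 0.88 ± 0.25 (Zfp955a, adjusted p = 0.0985). For melatonin minus vitrified the differences were -0.76 ± 0.17 in Zfp955b (adjusted p = 0.121) and -0.12 ± 0.23 in Zfp955a (adjusted p = 0.832). Whether the copies differ from each other in this was not tested. The copies shared 26.5% (Zfp955a) and 16% (Zfp955b) of their windows, so reads could be assigned to the wrong copy, and 12.2% of the exon bases of Zfp955b also lie in a pseudogene on the opposite strand.

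**Figure D3:**
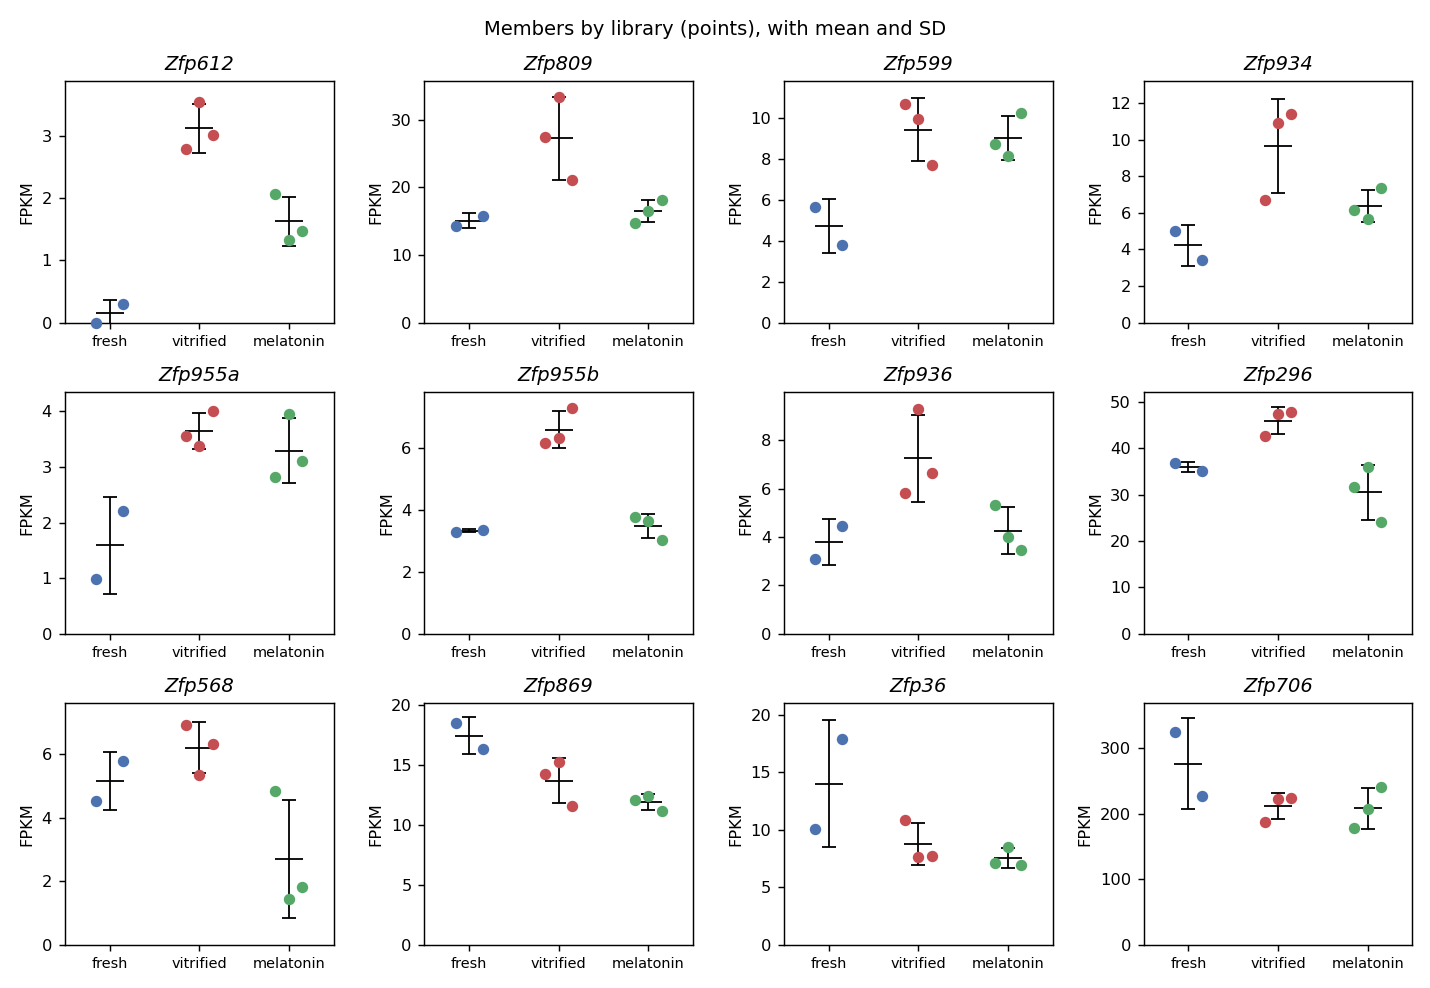
FPKM of 12 members in each library (points, linear axes from 0), with the mean and SD of each group (n = 2, 3 and 3). Zfp612 was between 2.79 and 3.55 FPKM in the vitrified libraries and at most 0.299 in the fresh ones; Zfp955b and Zfp809 were highest in the vitrified libraries, and Zfp869 was highest in the fresh ones.

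Melatonin libraries were compared with vitrified ones to see what the hormone changed in embryos that were all frozen. No member passed the test. Without further scaling, most members stood slightly lower with melatonin, and so did tested genes in general, though by less. With quantile normalization the median difference of all tested genes was 0.022 and that of the members -0.016. With median ratio scaling these medians were 0.007 and -0.053. This comparison shares its vitrified libraries with the one before, so the values of both are not independent.

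With limma, 0 of 195 members had an adjusted p below 0.05, against 0.139% of all tested genes (0.0279% higher and 0.112% lower). At an unadjusted p below 0.05, 20 members were lower (background 10.2%) and 1 was higher (background 4.59%). The members' median was -0.11, that of all tested genes -0.05, and 66 members (33.8%) were above 0, against 43.8%. In 33 members (background 15.4%) all melatonin libraries were below all vitrified libraries, and in 7 (background 9.3%) above them. Zfp407 and Zfp950, which met the level rule through vitrified libraries only, are among the 33. With median ratio scaling the counts were 26 (background 12.0%) and 11 (background 13.2%), and with quantile normalization 22 (background 11.7%) and 14 (background 13.5%).

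Among members ranked by the same rule, here with the mean taken over vitrified and melatonin libraries, the lowest differences after Zfp955b were those of Zfp809 and Zfp936. In the melatonin libraries Zfp809 had 14.8, 16.6 and 18.2 FPKM, all below the lowest vitrified library at 21.1 (-0.67 ± 0.19, SE, adjusted p = 0.187, limma). Zfp936 had 5.34, 3.98 and 3.45 FPKM with melatonin and 5.82, 9.28 and 6.66 in vitrified libraries (-0.65 ± 0.23, adjusted p = 0.256). Zfp623 had 2.73, 5.39 and 3.62 FPKM with melatonin, just below its vitrified libraries (-0.61 ± 0.23, adjusted p = 0.273).

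Zfp296 had 31.6, 35.9 and 24.2 FPKM with melatonin, 42.6, 47.4 and 47.9 in vitrified and 36.8 and 35.2 in fresh libraries. Its vitrified libraries were above those of both other groups. Of its exon bases, 12.9% also lie in Gemin7 on the opposite strand, which had 13.8 to 19.8 FPKM. The difference of melatonin from vitrified was -0.59 ± 0.16 (adjusted p = 0.192, limma) and that of vitrified from fresh 0.34 ± 0.18 (adjusted p = 0.326). Zfp566 (-0.38) and Zfp868 (-0.30) were the remaining members of that level lower without overlap. Zfp772 (0.31) and Zfp949 (0.23) were the only ones of that level that were higher. Adjusted p of all of these ran from 0.345 to 0.597 (limma). At a mean of 5 FPKM or more over all 8 libraries, 5 of 55 members and 832 of 5721 tested genes were lower without overlap. Higher without overlap were 2 of 55 members and 703 of 5721 tested genes. Of the exon bases of Zfp566, 17.9% also lie in Gm26920 on the same strand, which had 0.240, 0 and 1.54 FPKM in vitrified and 1.89, 3.94 and 2.56 in melatonin libraries, and how reads were divided between them is not known.

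Melatonin libraries were also compared with fresh ones, which asks how far vitrified embryos with the hormone stand from embryos that were never frozen. No member and no other gene passed the test. With limma, 0 of 195 members had an adjusted p below 0.05 (background 0.0%). At an unadjusted p below 0.05, 19 members were higher (background 11.6%) and 6 lower (background 6.82%). The members' median was 0.15 and that of all tested genes 0.09. In 45 members (background 20.8%) the melatonin libraries were all above the fresh ones and in 14 (background 13.5%) all below. Members with no fresh library at 1 FPKM, such as Zfp612, Zfp57 and Zfp445, are among the 45. With median ratio scaling these counts were 30 (background 16.6%) and 21 (background 17.3%), and with quantile normalization 23 (background 16.4%) and 21 (background 17.0%).

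Zfp599 had 8.69, 8.14 and 10.2 FPKM with melatonin, again above both fresh libraries (0.82 ± 0.22, SE, adjusted p = 0.148, limma). Zfp110, which binds the neurotrophin receptor p75, had 8.87, 9.11 and 9.04 FPKM with melatonin and 3.65 and 7.20 in fresh libraries (0.70 ± 0.26, adjusted p = 0.216). The fresh libraries of Zfp110 were far apart, and its difference was 1.10 without fresh replicate 2 (adjusted p = 0.0429) and 0.29 without fresh replicate 1 (adjusted p = 0.692). Zfp934, Zfp949, Zfp251, Zfp655, Zfp472 and Zfp64 followed with differences between 0.33 and 0.51.

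Of the ranked members that were lower, Zfp36 had the largest difference with all libraries. It had 10.1 and 17.9 FPKM in fresh, 10.9, 7.65 and 7.75 in vitrified and 7.11, 8.54 and 6.95 in melatonin libraries (melatonin minus fresh -0.77 ± 0.26, SE, adjusted p = 0.185, limma). Without fresh replicate 2 it was -0.39, smaller than the -0.60 of Zfp869, and without fresh replicate 1 it was -1.16. Zfp869 had 18.5 and 16.3 FPKM in fresh, 14.2, 15.2 and 11.6 in vitrified and 12.1, 12.4 and 11.1 in melatonin libraries (-0.52 ± 0.18, adjusted p = 0.191). In Zfp869 the fresh libraries were the highest, and vitrified and melatonin libraries overlapped. Zfp868 (-0.37), Zfp566 (-0.29), Zfp948 (-0.28) and Zfp825 (-0.18) were the other ranked members lower without overlap.

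Members known to silence repeats or to guard imprints were given as a list of 7, of which 6 were members. Of the 6, 0 passed in any comparison (limma), against 0.865%, 0.139% and 0.0% of all tested genes in the 3 comparisons. Zfp708, which silences a retrotransposon family in early embryos, was above 0 in a single library, at 0.401 FPKM. Zfp57, which keeps methylation at imprinting control regions, had 0.626 and 0.264 FPKM in fresh, 0.860, 2.45 and 1.22 in vitrified and 0.645, 1.20 and 0.855 in melatonin libraries. Zfp445, its partner at imprinted loci, had 0.811 and 0.813 FPKM in fresh, 1.35, 2.56 and 2.39 in vitrified and 1.51, 2.24 and 0.908 in melatonin libraries. Both were higher in each vitrified than in each fresh library, by 0.76 ± 0.30 (SE, adjusted p = 0.200) and 0.75 ± 0.29 (adjusted p = 0.187). No fresh library of either reached 1 FPKM, so both met the level rule only through the groups in which they were higher.

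Zfp819, which acts on endogenous retroviruses in pluripotent cells, had 0.0655 and 0.338 FPKM in fresh and 0.933, 1.31 and 1.5 in vitrified libraries (0.90 ± 0.33, SE, adjusted p = 0.163, limma). Zfp932, another repressor of endogenous retroviruses, shared 26.9% of its windows and overlapped between the groups (0.56 ± 0.35, adjusted p = 0.399). Zfp568, which represses a placental Igf2 transcript, had 4.51 and 5.80 FPKM in fresh, 6.93, 5.35 and 6.32 in vitrified and 4.85, 1.45 and 1.82 in melatonin libraries. Of this list it had the largest difference of melatonin from vitrified (-1.06 ± 0.31, adjusted p = 0.198), and the melatonin libraries themselves were far apart. Over the 6 tested genes the median difference of vitrified from fresh was 0.75, against 0.14 over all tested genes. In the higher direction 4 did not overlap (background 26.4%). Among these 4, Zfp57, Zfp445 and Zfp819 reached 1 FPKM in no fresh library. They met the level rule only through the groups in which they were higher. The list was put together with results of these data known, and nothing particular to it is read from this.

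The proteins through which KRAB zinc finger proteins act were described from a list of 34 names, of which 30 genes were tested. Trim28, the shared corepressor, had 23.0 and 46.1 FPKM in fresh, 31.9, 34.8 and 34.5 in vitrified and 47.9, 35.8 and 41.0 in melatonin libraries. The fresh libraries of Trim28 enclosed all vitrified ones, and the difference of 0.05 ± 0.26 (SE, adjusted p = 0.946, limma) changed sign with median ratio scaling (-0.15). Setdb1, the histone methyltransferase that follows it, had 3.94 and 5.45 FPKM in fresh, 6.72, 5.44 and 6.20 in vitrified and 9.31, 7.71 and 5.16 in melatonin libraries (vitrified minus fresh 0.33 ± 0.25, adjusted p = 0.495). Hdac2, a histone deacetylase of the NuRD complex, was the only one of the 30 to pass, and rose in vitrified libraries (background 0.762% higher). It had 30.5 and 22.0 FPKM in fresh, 55.7, 49.5 and 52.6 in vitrified and 28.8, 36.3 and 33.7 in melatonin libraries (0.99 ± 0.18, adjusted p = 0.0477). The adjusted p of Hdac2 lay between 0.0418 and 0.15 over 18 other fits and was below 0.05 in 3 of them, and leaving out any 1 of the 8 libraries ended the call. The median of the 30 genes was 0.19 for vitrified minus fresh. No gene of the list passed in the other comparisons, where 0.139% and 0.0% of all tested genes passed.

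Members of the other lists did not pass in any of the 3 comparisons, in which 0.865%, 0.139% and 0.0% of all tested genes passed. Of 8 genes tied to pluripotency or cleavage stages, 5 were members; Zfp352, a cleavage-stage gene, was at 0.031 FPKM in a single vitrified library and at 0 in the others. Zfp281, which drives exit from naive pluripotency, lay between 0.858 and 2.60 FPKM with overlapping groups. Of 11 genes that act on RNA or ribosomes, 10 were members, with median differences of 0.11, -0.09 and -0.04 in the 3 comparisons. Zfp91 and Zfp451, which act as ubiquitin and SUMO ligases, had overlapping groups in all 3. Of 19 chromatin and transcription factors, 9 were members, and their median differences were 0.23, 0.05 and 0.23.

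Domains and levels were compared by description. For vitrified minus fresh the median was 0.26 in the 109 KRAB members, of which 94 (86.2%) were above 0, and 0.12 in the 82 without KRAB, of which 59 (72%) were. It was -0.14 and -0.04 for melatonin minus vitrified and 0.19 and 0.12 for melatonin minus fresh. Differences also varied with level. At a mean below 2 FPKM the members' median for vitrified minus fresh was 0.20 and that of all tested genes 0.23. At 2 to 5 FPKM these were 0.43 and 0.22, and at 5 FPKM or more 0.16 and 0.06. Below 2 FPKM, 79.5% of members and 71.7% of all tested genes were above 0. With only the 156 members that shared under 5% of their windows, the median was 0.19.

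Runs of neighbouring members did not share 1 pattern. In the run of 10 on chromosome 13, which includes Zfp429 and Zfp874a, all 10 were above 0 for vitrified minus fresh (0.17 to 0.94, median 0.31). In that comparison 80.0% of all members and 63.5% of all tested genes were above 0. For melatonin minus fresh 5 of the 10 were above 0 (median 0.06), against 59.2% of all tested genes. The run of 11 on chromosome 17 that includes the Zfp955 pair had medians of 0.47, -0.09 and 0.26 in the 3 comparisons. The other run of 11 on chromosome 17, which includes Zfp51 and Zfp820, had 0.19, 0.02 and 0.20. The run of 5 on chromosome 8 (Zfp869, Zfp866, Zfp868, Zfp930 and Zfp963) had -0.06, -0.26 and -0.26, and all 5 were below 0 for melatonin minus fresh, against a median of 0.09 for all tested genes. Neighbours are not independent, and these runs were picked after their values had been seen.

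**Figure D4:**
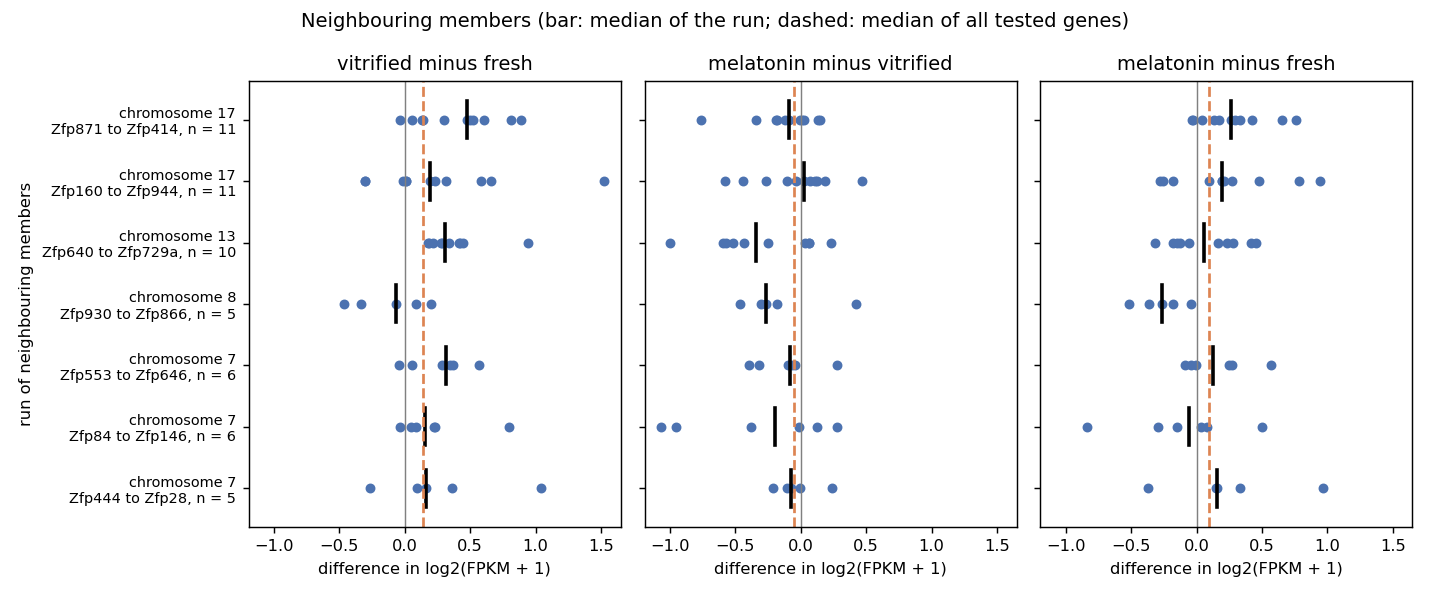
Difference in log2(FPKM + 1) of each member (point) in the 7 runs of at least 5 neighbouring members, with the median of the run as a bar and the median of all tested genes as a dashed line. The run on chromosome 13 lay between 0.17 and 0.94 for vitrified minus fresh, and the run on chromosome 8 between -0.52 and -0.04 for melatonin minus fresh.

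On the X chromosome lay 2 members, which were looked at because libraries differed in Y-linked transcripts. The 4 Y-linked genes Ddx3y, Eif2s3y, Kdm5d and Uty summed to 0 FPKM in vitrified replicates 2 and 3 and to between 20.9 and 36.8 in the other 6 libraries. Zfp185 had 0.999 and 2.20 FPKM in fresh, 4.63, 4.18 and 5.52 in vitrified and 4.16, 3.05 and 2.32 in melatonin libraries (vitrified minus fresh 1.19 ± 0.28, SE, adjusted p = 0.0645, limma). Vitrified replicate 1, which had Y-linked transcripts, lay between the other two vitrified libraries in Zfp185. Zfp280c lay between 1.54 and 3.50 FPKM, with vitrified libraries at 1.84 to 2.17 inside the range of the melatonin ones. What the difference in Y-linked transcripts did to the values of either member was not tested.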

How the data were processed

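The authors deposited FPKM per gene for 8 libraries, on genome build mm10 per the submitters' processing notes. Which aligner, counting program and annotation were run, and whether counting used strand, is not given in the sources used here. Both labels and series text were read for the library method, and they differ (a full-length method for little RNA, and poly(A) selection). Fragments per library were estimated from FPKM steps of genes with 1 transcript (93.2% to 95.2% whole within 0.1).

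Genes of at least 1 FPKM in at least 2 libraries entered limma (version 3.58.1, under R 4.3.3) as log2 of FPKM plus a pseudocount of 1, with a variance trend, in 1 model of all 8 libraries and 3 comparisons; two-sided, Benjamini-Hochberg adjusted p below 0.05. The model was tested on simulated data. GENCODE M21 gave coordinates, proteins and shared 100-base windows; fingers, KRAB and SCAN are pattern matches set after results had been seen. Python 3.11.15 made the summaries.

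Members and lists were chosen with earlier results of these data known. Named members passed the test, or were among the 8 highest or 8 lowest differences without overlap at a mean of 5 FPKM or more over the groups compared, the 10 highest levels, the role lists, the members nearest the level rule or pairs by sequence. Zfp185, Zfp280c and Zfp820 were chosen after their values were seen. Alternatives were other scalings, pseudocounts, filters, blocks and left-out libraries.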

Additional observations from a re-analysis of the deposited data

How the results depend on the processing

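The count of 1 member that passed for vitrified minus fresh, in the higher direction, became 0 with quantile normalization, without a filter, with a mean of at least 5 FPKM, with only the groups compared and with the replicate block by biosample or title number; it was 14 at an adjusted p below 0.1 (5.31% of all tested genes) and 0 to 6 when each library was left out, with 6 without fresh replicate 2 (3.47% of all tested genes). For melatonin minus fresh the 0 members became 0 to 5, all higher, when each library was left out, with 5 without fresh replicate 2 (3.86% of all tested genes). The cause was not tested. The members' median for vitrified minus fresh was 0.00 with quantile normalization, 0.079 with median ratio scaling, 0.32 with a pseudocount of 0.1, 0.31 with the title number as replicate block and 0.22 to 0.31 with each library left out. With quantile normalization it was -0.016 for melatonin minus vitrified and 0.019 for melatonin minus fresh. After seeing the data, counts without overlap were recomputed. For vitrified minus fresh they were 36 higher and 23 lower with quantile normalization, 43 and 19 with median ratio scaling, and 98 to 111 and 24 to 37 without either fresh library, when 37.7% to 49.7% of all tested genes were higher and 22.1% to 26.7% lower; 98 members were above 0 with quantile normalization. For melatonin minus vitrified 14 were higher with quantile normalization and 11 with median ratio scaling. For melatonin minus fresh 23 were higher with quantile normalization, and 73 to 88 were higher and 37 to 41 lower without either fresh library, when 29.9% to 45.4% of all tested genes were higher and 25.0% to 28.7% lower. Zfp825 changed sign for melatonin minus fresh with the title number as replicate block (0.028), and Trim28 for vitrified minus fresh with median ratio scaling (-0.15) and without fresh replicate 1 (-0.439, against 0.531 without fresh replicate 2). Equal replicate numbers did not deviate together (correlations from -0.115 to 0.121), and the replicate block changed no call among members other than Zfp612 (1.88, adjusted p = 0.116). With a fresh library left out, the remaining one is assumed to vary like the other groups. Depth and 2 fresh libraries limit what could be detected.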
